A study of Mus musculus with 21 samples.

Results

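Pdk4 and 8 other genes that PPAR nuclear receptors activate and that respond to fasting in muscle were followed in mouse hearts with and without Notch3. The genes were Pdk4, Angptl4, Ucp3, Ucp2, Acot1, Acot2, Plin5, Plin2 and Cpt1a. They were chosen by name for their known roles, with earlier results of these data known, so that p-values on them are descriptive. They were matched by Ensembl identifier and make up 9 of the 46517 Ensembl genes counted. The question was whether they went up and down together from mouse to mouse, as a difference in feeding would make them do, and whether they did so apart from liver transcripts found in some of the hearts.

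Bulk RNA sequencing of polyadenylated RNA was done on left ventricle from 4 control (Notch3+/+) and 3 Notch3-/- mice on the c57bl/6j background, aged 10 to 14 months. The Notch3-/- mice carried a targeted insertion of lacZ in the Notch3 locus. No treatment was given, food was freely available according to the methods, and neither the sex of each mouse nor the time since its last meal was given. Control mice 1 and 2 had identifiers that began with X, whereas control mice 3 and 4 and all Notch3-/- mice had identifiers that began with k, and the meaning of these letters was not given. Each mouse was sequenced as 3 technical libraries, which were summed. The summed counts were 3091461, 4638786, 4208205 and 3046326 in controls 1 to 4 and 3828763, 5167869 and 5086740 in Notch3-/- mice 1 to 3, from single libraries of 464390 to 2427783 counts. Levels are given as CPM, counts scaled to an equal library total and corrected for composition.

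When an animal fasts, fat tissue releases fatty acids, and these fatty acids bind PPARalpha and PPARdelta in heart muscle. The receptors pair with RXR on DNA and switch on genes for burning, storing and detoxifying fatty acids, while the fall in insulin frees FoxO factors that act on some of the same genes. Pdk4 is the best known of these genes in heart: its product shuts pyruvate dehydrogenase, so that glucose is spared and fat is used.

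The genotype labels were checked first. Notch3 was at 57.3, 42.1, 57.6 and 61.8 CPM in controls 1 to 4 and at 6.01, 7.57 and 4.73 CPM in Notch3-/- mice 1 to 3. All 3 Notch3-/- mice were below all 4 controls, with a log2 fold change of -3.16 (SE 0.23) and an adjusted p of 0.00173 in the quasi-likelihood F test of edgeR, p-values being adjusted by the Benjamini-Hochberg method. The tissue label was checked against 14 cardiomyocyte genes, all of which were detected in every mouse. Their summed level was 34595, 25541, 30325 and 33955 CPM in controls 1 to 4 and 34403, 23633 and 25408 CPM in Notch3-/- mice 1 to 3, and Actc1, cardiac actin, was the most abundant per exon length.

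Notch3-/- mice 1 and 2 stood apart by liver RNA. The 30 hepatocyte genes summed to 296, 458, 151 and 200 CPM in controls 1 to 4, to 10845 and 20808 CPM in Notch3-/- mice 1 and 2, and to 373 CPM in Notch3-/- mouse 3. They made up 1.04% and 1.91% of all counts in Notch3-/- mice 1 and 2, and between 0.0152% and 0.0468% in the other mice. Alb, the gene of serum albumin, was the most abundant of them per exon length, at 22.4, 81.1, 2.35 and 10.7 CPM in controls 1 to 4 and 1705, 1875 and 66.9 CPM in Notch3-/- mice 1 to 3. All 30 were detected in each Notch3-/- mouse, and none was at 0 throughout. Liver also expresses several of the members, so each result below is given with and without these mice where they decide it.

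Positions were taken from the GENCODE annotation of build GRCm38, the build that the submitters' notes call mm10. Pdk4 (ENSMUSG00000019577) lies on the minus strand at chr6:5483351-5496309. Acot2 (ENSMUSG00000021226, chr12:83987861-83993873) and Acot1 (ENSMUSG00000072949, chr12:84009490-84018371) are neighbours on the plus strand, 15616 bases apart. Ucp3 (ENSMUSG00000032942, chr7:100472990-100486432) and Ucp2 (ENSMUSG00000033685, chr7:100493337-100502020) are also neighbours on the plus strand, 6904 bases apart. Angptl4 (ENSMUSG00000002289, chr17:33773750-33781830) and Plin5 (ENSMUSG00000011305, chr17:56111601-56117596) lie on the minus strand of the chromosome that holds Notch3, 1.61 and 23.9 megabases from it. Plin2 (ENSMUSG00000028494) lies on the minus strand at chr4:86648386-86670060, and Cpt1a (ENSMUSG00000024900) on the plus strand at chr19:3322334-3385733.

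Promoter sequence from RefSeq (build GRCm38.p6) was matched for 8 of 9 members. Upstream windows of 200 bases, from 250 to 51 bases before the RefSeq start, are shown 5′ to 3′ for the 4 genes that the comparison between mice turned on, Pdk4, Acot1, Acot2 and Ucp3, and for Plin2 and Cpt1a, whose levels ran otherwise. Capitals mark AGGTCA or its reverse complement TGACCT, the core that PPAR and RXR recognise. The windows are chr6:5496329-5496528 (minus strand) for Pdk4, chr12:84009252-84009451 (plus) for Acot1, chr12:83987611-83987810 (plus) for Acot2, chr7:100472741-100472940 (plus) for Ucp3, chr4:86670110-86670309 (minus) for Plin2 and chr19:3323051-3323250 (plus) for Cpt1a. The window of Cpt1a lies upstream of its RefSeq start but inside the longer GENCODE gene given above.
Pdk4: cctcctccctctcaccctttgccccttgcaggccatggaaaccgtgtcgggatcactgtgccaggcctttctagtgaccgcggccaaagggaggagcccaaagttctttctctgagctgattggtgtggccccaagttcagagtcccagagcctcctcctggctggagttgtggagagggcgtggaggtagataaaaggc
Acot1: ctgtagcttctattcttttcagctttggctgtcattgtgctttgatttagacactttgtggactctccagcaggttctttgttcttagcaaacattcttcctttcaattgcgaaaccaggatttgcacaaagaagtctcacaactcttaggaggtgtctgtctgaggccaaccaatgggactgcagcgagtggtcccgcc
Acot2: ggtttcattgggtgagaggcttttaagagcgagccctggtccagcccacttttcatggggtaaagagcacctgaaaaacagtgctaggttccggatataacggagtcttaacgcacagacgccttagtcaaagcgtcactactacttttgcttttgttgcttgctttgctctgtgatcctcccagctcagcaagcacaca
Ucp3: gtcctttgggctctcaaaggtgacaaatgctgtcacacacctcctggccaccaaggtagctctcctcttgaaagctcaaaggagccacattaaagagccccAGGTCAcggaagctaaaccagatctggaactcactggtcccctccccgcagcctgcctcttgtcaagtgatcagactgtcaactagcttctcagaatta
Plin2: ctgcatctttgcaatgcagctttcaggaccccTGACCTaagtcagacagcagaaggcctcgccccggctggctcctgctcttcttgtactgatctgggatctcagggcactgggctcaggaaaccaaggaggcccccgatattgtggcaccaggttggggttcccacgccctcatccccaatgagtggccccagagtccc
Cpt1a: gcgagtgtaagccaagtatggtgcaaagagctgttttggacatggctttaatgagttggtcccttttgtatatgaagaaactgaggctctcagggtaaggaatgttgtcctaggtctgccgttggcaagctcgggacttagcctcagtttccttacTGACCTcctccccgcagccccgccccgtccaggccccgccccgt
Motifs were searched in the whole promoter sequence matched for each gene, of which the lines above show the first 200 bases. A member with several windows counted if any held the motif, whereas the percentages are of single windows. The core AGGTCA was found, on either strand, in the windows of 4 of 8 members (Cpt1a, Plin2, Plin5 and Ucp3), and in 16.3% of the 32851 promoter windows of all genes. The full PPAR and RXR element, searched as 2 copies of AGGTCA 1 base apart on either strand and so containing the core, was in 0 of 8 members and 0.0396% of all windows. AGAACA, part of the glucocorticoid receptor element, was in the window of Acot1 and in 19.0% of all windows. TGTTTAC, a FoxO element, was in 0 of 8 members and 3.65% of all windows, both strands being searched. These are descriptions of letters in a short window, and PPAR elements can lie far from a start.

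Across all genes, the comparison of the genotypes asked which genes differ in hearts without Notch3. After a filter on low counts 14324 genes were tested, all 9 members among them. Genes were called at an adjusted p under 0.05 and a fold of at least 1.5, and 1 gene, Notch3 itself, was called by edgeR (0.00698% of genes tested). Of the members 0 were called. At an unadjusted p under 0.05 edgeR found 1488 genes (10.4%), 437 lower in Notch3-/- mice (3.05%) and 1051 higher (7.34%), and 0 members in either direction. DESeq2 on the same genes called 300, and limma-voom on the separate libraries called 54, again with 0 members. By limma-voom 1863 of 14324 genes had an unadjusted p under 0.05. Members among them were Ucp3 (-1.17, p = 0.00697), Pdk4 (-0.77, p = 0.00767), Acot2 (-0.60, p = 0.0112), Plin2 (0.43, p = 0.0233) and Ucp2 (-0.49, p = 0.0304). By DESeq2 1422 of 14313 genes did, with Ucp2 (p = 0.0282) and Plin2 (p = 0.0393) among them. The limma-voom fit gave all genes the same correlation between libraries of a mouse, 0.143. All 9 members varied more between mice than between libraries of a mouse (SD of log2 CPM), so its p-values can be too small for them. The groups did not overlap for 1222 genes (8.53%) and for 0 of the 9 members. The median log2 fold change was -0.26 over the members, 6 of 9 being below 0, and 0.00 over all genes, of which 50.4% were below 0.

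Pdk4, the kinase that inactivates pyruvate dehydrogenase, was at 635, 673, 442 and 379 CPM in controls 1 to 4 and at 167, 240 and 682 CPM in Notch3-/- mice 1 to 3. Notch3-/- mice 1 and 2 were below every control, while Notch3-/- mouse 3 was above every control, so that the groups overlapped. The log2 fold change was -0.55 (SE 0.42, 95% interval -1.50 to 0.40), with an adjusted p of 0.691 by edgeR. Without Notch3-/- mouse 3 it was -1.39 with an adjusted p of 0.00974 by edgeR, but 936 of 15008 genes were called in that setting, where the 2 knockouts left are the mice rich in liver RNA. With Notch3-/- mouse 3 as the lone knockout, a comparison added after the data were seen, it was 0.36. Among mice with k identifiers alone it was -0.18 (SE 0.58), and mice with X identifiers were all controls. In bulk tissue a gene expressed per cell at a lower level cannot be told apart from fewer cells that express it.

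**Figure D1:**
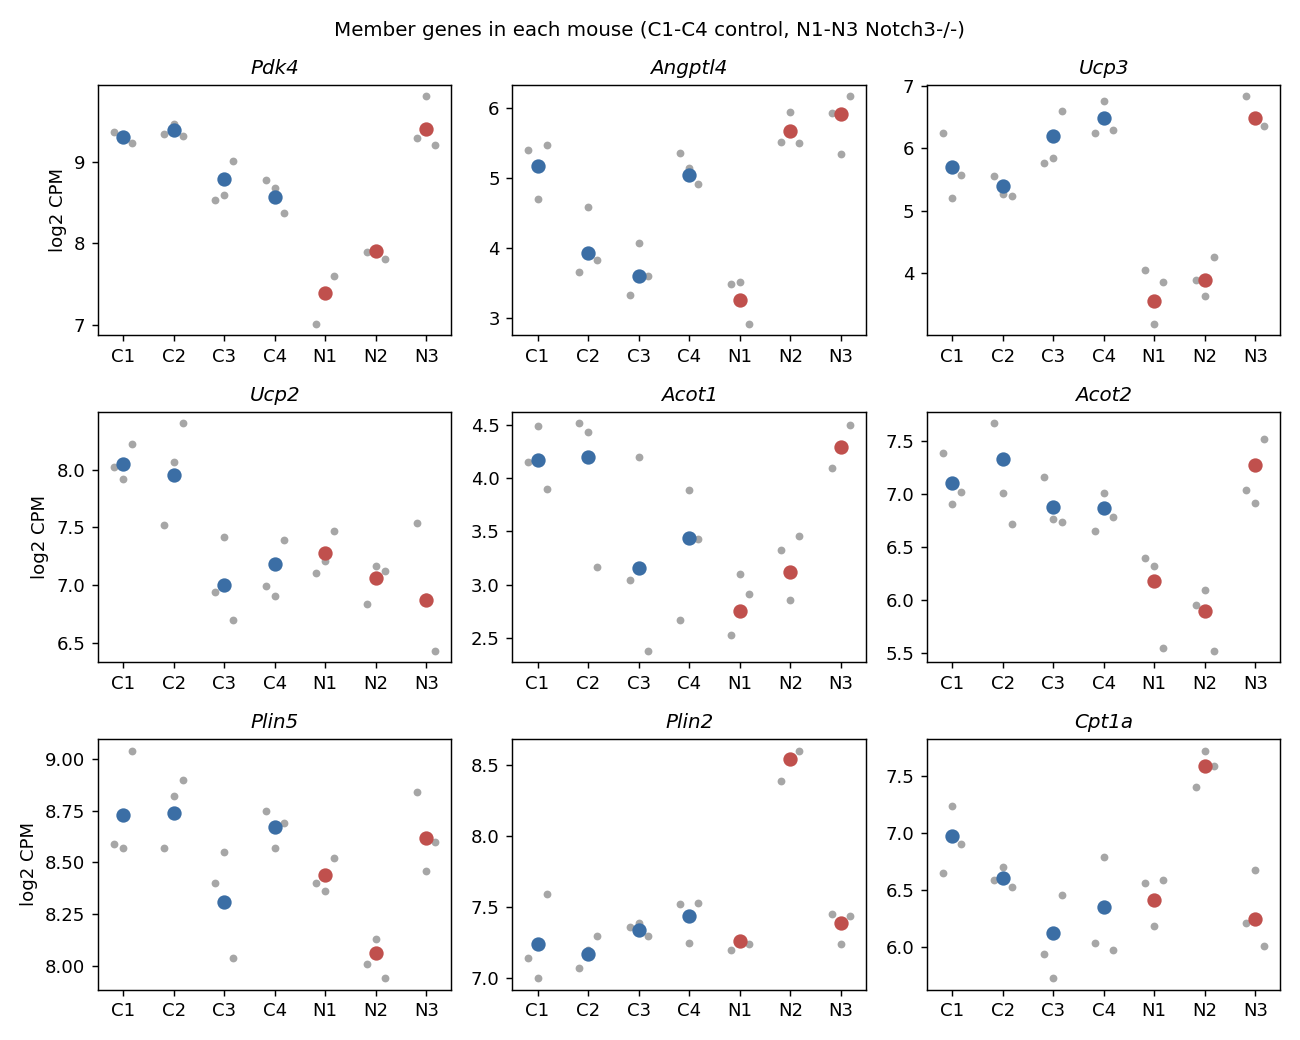
Level of each member (log2 CPM) in controls 1 to 4 (C1 to C4, blue) and Notch3-/- mice 1 to 3 (N1 to N3, red). Large points are mice, with the technical libraries summed, and small grey points are the 3 libraries of that mouse; Pdk4 and Ucp3 are lowest in N1 and N2, and Plin2 and Cpt1a are highest in N2.

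Acot1 and Acot2 encode the cytosolic and the mitochondrial acyl-CoA thioesterase, enzymes that release free fatty acid from acyl-CoA. Acot2 was at 138, 160, 117 and 116 CPM in controls 1 to 4 and at 72.1, 59.3 and 154 CPM in Notch3-/- mice 1 to 3. As with Pdk4, Notch3-/- mice 1 and 2 were below every control, and Notch3-/- mouse 3 was within the range of the controls. Acot1 was at 17.5, 17.9, 8.47 and 10.4 CPM in controls 1 to 4 and at 6.29, 8.20 and 19.1 CPM in Notch3-/- mice 1 to 3, from 23 to 101 counts a mouse. The lowest values were again those of Notch3-/- mice 1 and 2 and the highest that of Notch3-/- mouse 3. The log2 fold change was -0.48 (SE 0.30) for Acot2 and -0.26 (SE 0.42) for Acot1, with adjusted p of 0.615 and 0.876 by edgeR. Without Notch3-/- mouse 3 the value for Acot2 was -1.02 with an adjusted p of 0.00867 by edgeR, in the same setting with 936 genes called. The paralogs are alike: 24.4% of the 51-base windows of Acot2 exons, the length of the reads, also occur in Acot1, and 13.5% of those of Acot1 occur in Acot2. With the other Acot genes included, 27.4% of the windows of Acot2 and 19.0% of those of Acot1 occur elsewhere. How reads that match more than 1 gene were counted was not given. Acot2 is far more abundant, so reads of Acot2 could make up much of the Acot1 level, and their part was not tested.

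Ucp3 and Ucp2 encode carriers of the inner mitochondrial membrane, Ucp3 mostly in muscle and Ucp2 in many cell types. Ucp3 was at 51.4, 41.7, 72.7 and 88.8 CPM in controls 1 to 4 and at 11.2, 14.3 and 89.4 CPM in Notch3-/- mice 1 to 3, a fold of 7.98 between the highest and the lowest mouse. Notch3-/- mice 1 and 2 were far below every control and Notch3-/- mouse 3 was the highest of all. The log2 fold change was -0.71 (SE 0.63) with an adjusted p of 0.736 by edgeR, and -2.31 with an adjusted p of 0.00194 by edgeR without Notch3-/- mouse 3, again among 936 genes called. Ucp2 divided the mice differently, at 264, 246, 128 and 145 CPM in controls 1 to 4 and 155, 133 and 117 CPM in Notch3-/- mice 1 to 3. The high values were those of control mice 1 and 2, the mice with X identifiers, and the remaining controls overlapped with the Notch3-/- mice. Its log2 fold change came to -0.54 (SE 0.26) with an adjusted p of 0.503 by edgeR, and -0.02 (SE 0.18) among mice with k identifiers alone. The antisense gene Dnajb13 shares 305 exonic bases with Ucp2 but had at most 3 counts in a mouse, and Gm10603, antisense to Ucp3, shares no exonic base with it.

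Angptl4 encodes a secreted inhibitor of lipoprotein lipase and Cpt1a the liver form of the enzyme that passes fatty acids to carnitine for entry into mitochondria. Angptl4 was at 35.2, 14.8, 11.5 and 32.4 CPM in controls 1 to 4 and at 9.02, 50.3 and 59.6 CPM in Notch3-/- mice 1 to 3. The Notch3-/- group held both the lowest and the highest mouse, and Notch3-/- mice 1 and 2, alike in Pdk4, differed here. Its log2 fold change was 0.79 (SE 0.57) with an adjusted p of 0.667 by edgeR. Cpt1a was at 125, 97.2, 69.6 and 80.8 CPM in controls 1 to 4 and at 84.7, 192 and 75.5 CPM in Notch3-/- mice 1 to 3. Notch3-/- mouse 2, the mouse with the most liver RNA, was the highest, and the other 2 Notch3-/- mice were within the range of the controls. The log2 fold change was 0.34 (SE 0.33) with an adjusted p of 0.763 by edgeR, and -0.22 without Notch3-/- mouse 2. The share of liver RNA in the Cpt1a level was not tested.

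Plin5 and Plin2 encode coat proteins of lipid droplets, Plin5 being typical of oxidative muscle and Plin2 of most tissues that store fat in droplets, liver included. Plin5 was at 425, 427, 317 and 406 CPM in controls 1 to 4 and at 347, 266 and 394 CPM in Notch3-/- mice 1 to 3. It varied least of the members, by a fold of 1.61 from the highest to the lowest mouse, and only Notch3-/- mouse 2 lay below the controls. Plin2 was at 150, 144, 162 and 173 CPM in controls 1 to 4 and at 152, 371 and 167 CPM in Notch3-/- mice 1 to 3. Apart from Notch3-/- mouse 2, all mice lay between 144 and 173 CPM, and without that mouse the log2 fold change was 0.02. Over all mice it was 0.55 (SE 0.28) for Plin2 and -0.23 (SE 0.16) for Plin5, with adjusted p of 0.523 and 0.652 by edgeR. The part of liver RNA in the Plin2 level of Notch3-/- mouse 2 was not tested.

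**Figure D2:**
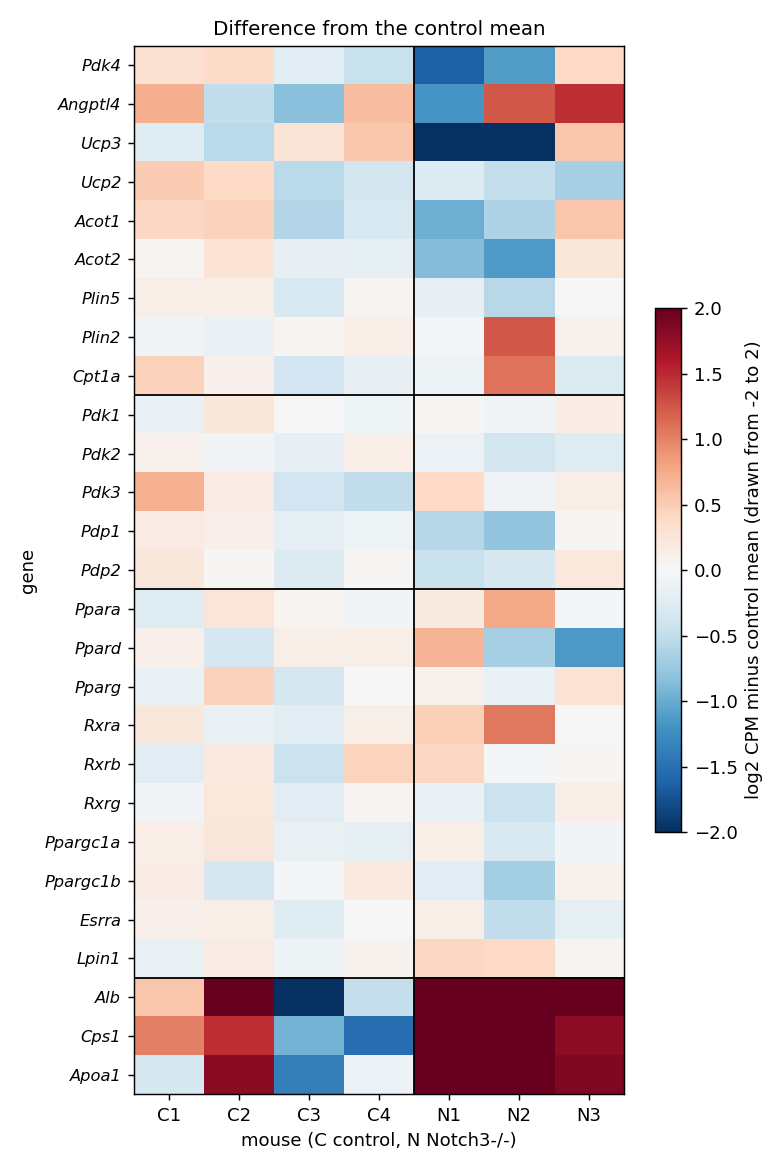
Log2 CPM of each gene in each mouse minus the mean of the 4 controls (colour scale from -2 to 2, values beyond it drawn at its ends), for the members, the pyruvate dehydrogenase kinases and phosphatases, the PPAR and RXR genes with their coactivators, and 3 liver genes. C1 to C4 are control and N1 to N3 Notch3-/- mice; Pdk4, Ucp3, Acot1 and Acot2 are low in N1 and N2 and not in N3, and Alb, Cps1 and Apoa1 are highest in N1 and N2.

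Per kilobase of exon, the mean level over the 7 mice was highest for Plin5, at 177 CPM per kilobase, and for Pdk4, at 131. Plin2 (53.7) and Acot2 (53.1) followed. Ucp2 (24.3), Ucp3 (16.8) and Cpt1a (13.6) were lower, Angptl4 (8.58) lower still and Acot1 (3.20) lowest. Along this order, the step was larger than the spread between mice from Pdk4 to Plin2, from Acot2 to Ucp2 and from Angptl4 to Acot1, and smaller than it between the other neighbours. The spread between mice of a genotype was large for most members. The SD of log2 CPM between mice was 1.11 for Angptl4, 1.09 for Ucp3, 0.73 for Pdk4, 0.65 for Acot1, 0.54 for Cpt1a, 0.49 for Acot2, 0.45 for Plin2, 0.43 for Ucp2 and 0.24 for Plin5. The median over all genes tested was 0.29, and 8 of 9 members were above it. Pdk4 lay at percentile 92.1 of all genes and Plin5 at percentile 39.0. Between the technical libraries of a mouse the SD was 0.22 for Pdk4, 0.37 for Ucp3 and Angptl4, 0.34 for Acot2 and 0.55 for Acot1. The median over all genes was 0.40 between libraries, above the 0.29 between mice, and single libraries hold fewer counts than the summed mice.

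Whether the members moved together was asked by correlating each of the other 8, and every other gene tested, with Pdk4 over the 7 mice (14323 correlations of log2 CPM, with an exact permutation p from every pairing of mice). Acot1 and Acot2 followed Pdk4. The correlation was r = 0.93 for Acot1 (exact permutation p = 0.00516; Spearman's rho 0.96, exact p = 0.00278) and r = 0.93 for Acot2 (exact permutation p = 0.00714; rho 0.93, exact p = 0.00675). These are 2 of the 8 other members with r above 0 and an unadjusted exact p under 0.05, against 3.71% of all genes (531). With the shared sequence noted above, the r of Acot1 may repeat that of Acot2, so these may not be 2 separate results. After adjustment over all genes the p was 0.643 for each, and 0 genes reached an adjusted p under 0.05, the smallest being 0.334. An r at least as high as that of Acot1 was found for 0.363% of all genes. Leaving out Notch3-/- mice 1 and 2, which were both farthest from the median Pdk4 level and richest in liver RNA, r was 0.92 for Acot1 and 0.94 for Acot2. In the 5 mice that remain, the high values are those of control mice 1 and 2 and Notch3-/- mouse 3. With each genotype centred on its own mean, r was 0.95 for Acot1 (exact permutation p = 0.0417) and 0.90 for Acot2 (exact permutation p = 0.0972). For Acot1, the member with the fewest counts, r was 0.29 in technical library 3 alone.

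The other members followed Pdk4 less closely or not at all. Ucp3 had r = 0.79 (exact permutation p = 0.0742, adjusted 0.652; rho 0.64, exact p = 0.139), but without Notch3-/- mice 1 and 2 its r was -0.53, so the relation rested on those mice. Plin5 had r = 0.65 (exact permutation p = 0.142, adjusted 0.674; rho 0.57, exact p = 0.200; 0.48 without the 2 mice). For Ucp2 r was 0.37 (exact permutation p = 0.456, adjusted 0.841; rho -0.11, exact p = 0.840; 0.43 without the 2 mice), so that the sign differed between the measures. Angptl4 had r = 0.32 (exact permutation p = 0.455, adjusted 0.841; rho 0.46, exact p = 0.302; 0.28 without the 2 mice). Cpt1a and Plin2, both highest in Notch3-/- mouse 2, had r below 0. The value was -0.23 for Cpt1a (exact permutation p = 0.598, adjusted 0.895; rho -0.25, exact p = 0.595; 0.47 without the 2 mice). It was -0.44 for Plin2 (exact permutation p = 0.413, adjusted 0.824; rho -0.36, exact p = 0.444; -0.65 without the 2 mice). The median r over the 8 members was 0.51, and 0.45 without the 2 mice, against -0.01 over all genes in both cases; 6 of 8 members and 49.4% of all genes had r above 0. The 5th and 95th percentiles of all genes were -0.75 and 0.73. Correlations within the X and the k mice were not computed: the X mice are 2 and all controls, and the k mice are 5, while tests of r were kept to 6 or more mice. The values without the 2 mice, also over 5, have no p and only show what the values over 7 mice rest on.

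**Figure D3:**
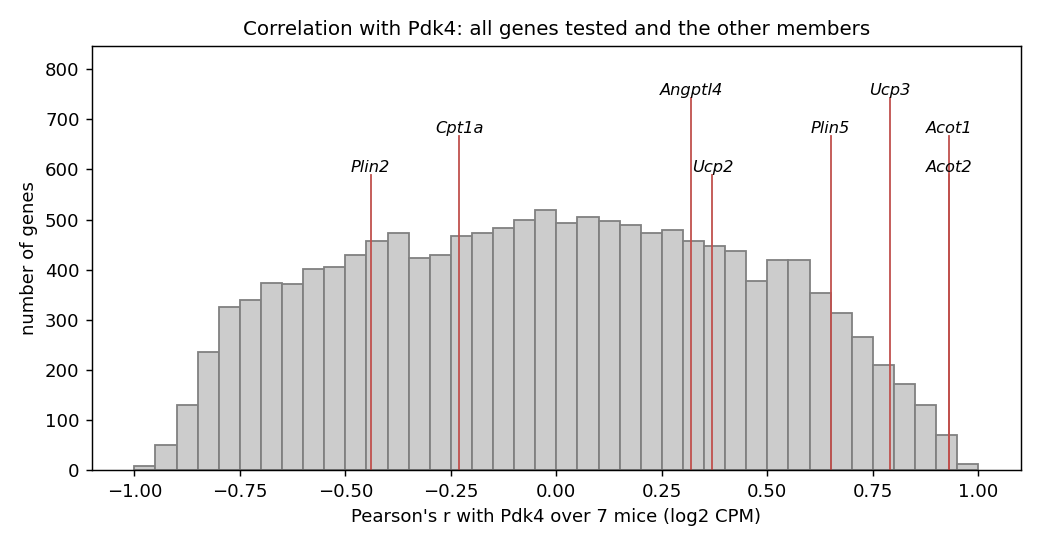
Number of genes (vertical axis) by Pearson's r with Pdk4 over 7 mice (horizontal axis, no unit) for all genes tested, with a line at the r of each other member. Acot1 and Acot2 are at 0.93, beyond the 95th percentile of all genes, and Plin2 and Cpt1a lie below 0.

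**Figure D4:**
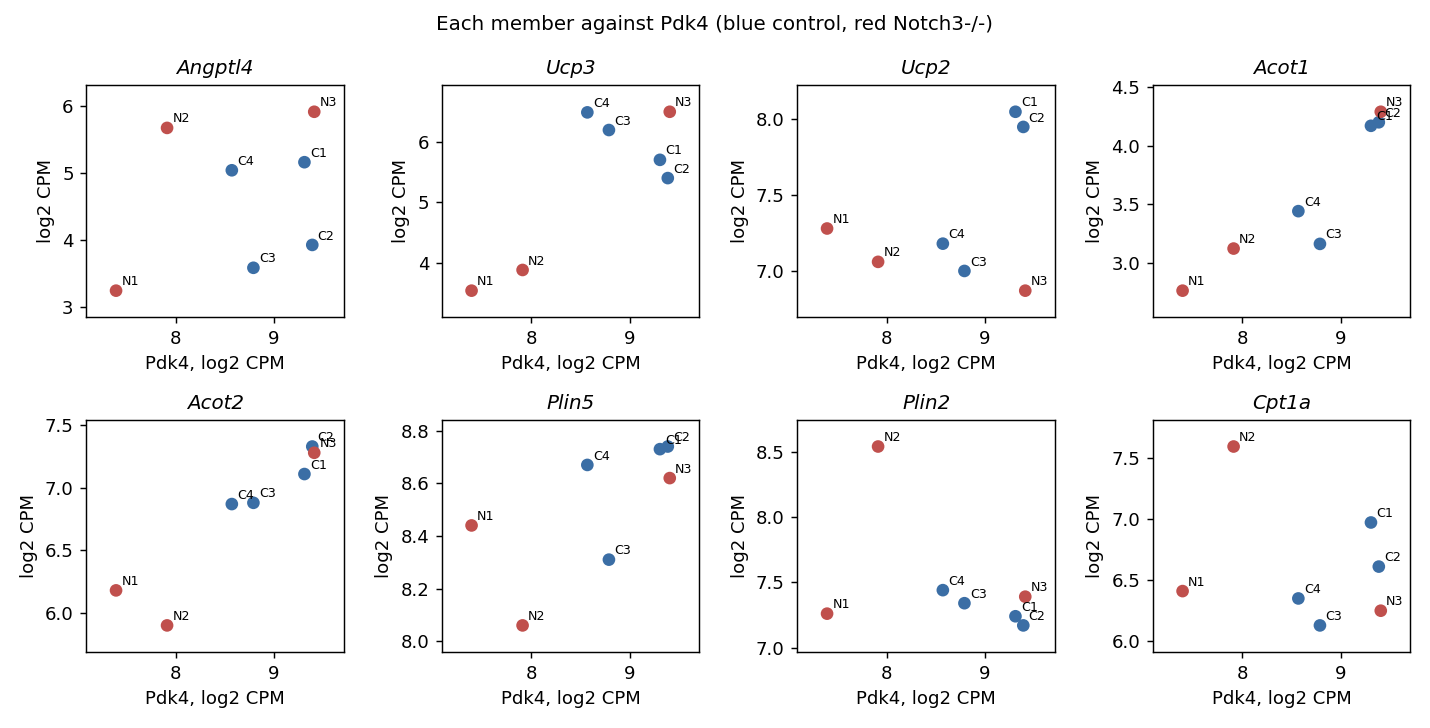
Log2 CPM of each other member (vertical axis) against log2 CPM of Pdk4 (horizontal axis) in the 7 mice, control in blue and Notch3-/- in red, each point being a mouse. Acot1 and Acot2 are highest in the 3 mice with the most Pdk4 (C1, C2 and N3), whereas for Ucp3 the relation rests on N1 and N2.

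Over all 36 pairs of members, r was above 0 in 22, with a median of 0.34 and a range from -0.79 to 0.93. The lowest was that of Plin5 with Plin2 (r = -0.79, exact permutation p = 0.0905, adjusted over all genes 0.626; rho -0.68, exact p = 0.110), which was -0.14 without Notch3-/- mouse 2 and control mouse 3. Acot1 with Acot2 had r = 0.85 (exact permutation p = 0.0115, adjusted over all genes 0.843; rho 0.89, exact p = 0.0123), and 0.73 without the 2 mice farthest from the median of Acot1, with the shared sequence noted above. Plin2 with Cpt1a had r = 0.76 (exact permutation p = 0.263, adjusted over all genes 0.644), but its rho was -0.07 (exact p = 0.906), and r was -0.65 without Notch3-/- mouse 2 and control mouse 2, so this relation rested on those mice. Plin5 had r = 0.82 with Acot2 (exact permutation p = 0.0540, adjusted over all genes 0.415), with a rho of 0.75 (exact p = 0.0663), and 0.57 without Notch3-/- mice 1 and 2. With Acot1 its r was 0.72 (exact permutation p = 0.0722, adjusted over all genes 0.862), with a rho of 0.68 (exact p = 0.110), and 0.64 without Notch3-/- mouse 3 and control mouse 2. The members thus did not move as 1 group: Pdk4, Acot1 and Acot2 ranked the mice in nearly the same order, Plin5 followed them less closely, Ucp3 shared the low level in Notch3-/- mice 1 and 2 and the high level in Notch3-/- mouse 3 but not the order of the controls, and Plin2 and Cpt1a were set apart by Notch3-/- mouse 2.

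The members were next set beside the liver genes. Liver levels formed 2 separate clusters over the 7 mice, so no correlation with them is given there. In Notch3-/- mice 1 and 2, where liver RNA was high, Pdk4, Ucp3 and Acot2 were below every control, while Plin2 and Cpt1a were high in Notch3-/- mouse 2 only. In the other 5 mice, where the 30 hepatocyte genes lay between 151 and 458 CPM, Pdk4 ranged from 379 to 682 CPM and Acot1 from 8.47 to 19.1 CPM. The 3 of these mice with the most Pdk4, control mice 1 and 2 and Notch3-/- mouse 3, also had the most hepatocyte RNA (296, 458 and 373 CPM, against 151 and 200 CPM in control mice 3 and 4). Over these 5 mice r with Pdk4 was 0.81 for Alb, 0.99 for Cps1 and 0.70 for Apoa1, against 0.92 for Acot1 and 0.94 for Acot2. These values have no p, and Cps1 had at most 23 counts in these mice. Whether Pdk4, Acot1 and Acot2 varied apart from liver RNA in these 5 mice was not tested. Fasting genes of liver were scored with 12 genes, which summed to 5.93, 12.0, 3.76 and 13.0 CPM in controls 1 to 4 and 474, 2105 and 11.5 CPM in Notch3-/- mice 1 to 3. Acaa1b, a peroxisomal thiolase, was the most abundant per exon length. Among the 5 mice this sum was highest, by a narrow margin, in control mouse 4, the lowest of them in Pdk4. That place rested on Acot3 and Acot4, which share sequence with Acot1 and Acot2. Both were at 4.68 CPM in control mouse 4. They were at 0.632 and 1.90 CPM in control mouse 2 and at 2.84 and 0.189 CPM in Notch3-/- mouse 3. Genes that liver expresses after feeding, 11 in all, summed to 1054, 1045, 914 and 1039 CPM in controls 1 to 4 and 2667, 7317 and 1137 CPM in Notch3-/- mice 1 to 3, with Scd1, a fatty acid desaturase, the most abundant. Liver genes of both states were thus high in the same 2 mice. The mean of Scd1, 599 CPM over the 7 mice, rested on those mice, where its log2 level lay 5.05 and 6.56 above the control mean. In the controls and Notch3-/- mouse 3 the sum of the genes expressed after feeding was above that of the hepatocyte genes. The part of liver RNA in it was not tested. Liver genes can pass the filter on low counts through Notch3-/- mice 1 and 2 alone, so no count or median over those that passed is given for the 3 lists. Adding the mean level of the hepatocyte genes to the fit gave log2 fold changes of 0.29 for Pdk4, 1.07 for Ucp3, 0.37 for Acot1 and 0.23 for Acot2. In that fit liver RNA and genotype overlap, since the mice rich in liver RNA are all Notch3-/-, and their parts cannot be told apart.

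**Figure D5:**
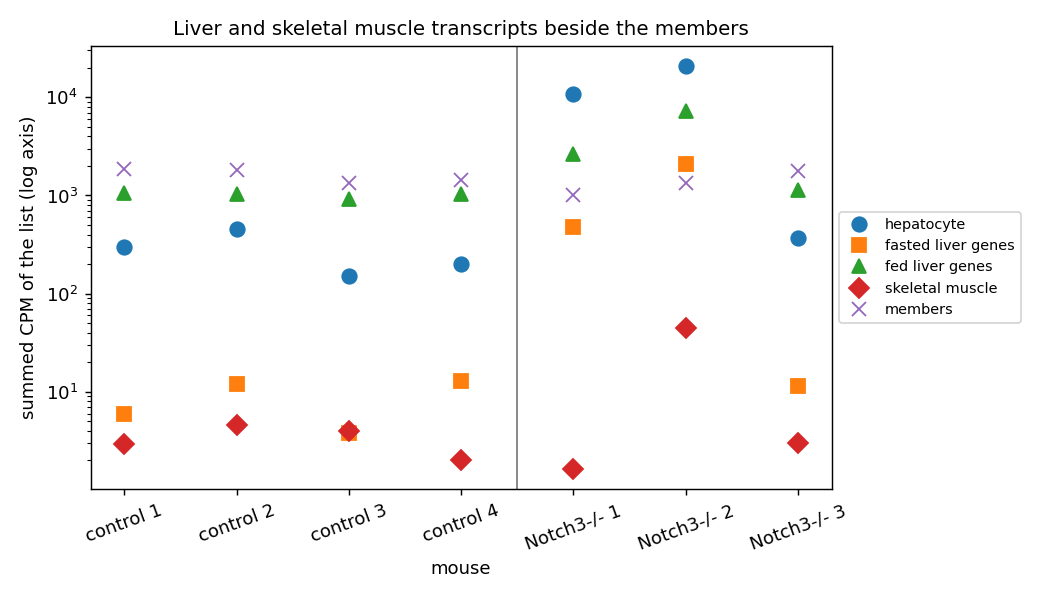
Summed CPM (vertical axis, log scale) of the hepatocyte, fasted liver, fed liver and skeletal muscle genes and of the 9 members in each mouse (horizontal axis). Hepatocyte genes reach 10845 and 20808 CPM in Notch3-/- mice 1 and 2 and lie between 151 and 458 CPM in the others, while the members lie between 1006 and 1841 CPM.

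Pdk4 acts within a set of 4 kinases and 2 phosphatases of pyruvate dehydrogenase, whose 5 other genes all passed the filter. Of these 0 were called and 0 had an unadjusted p under 0.05 by edgeR, with a median log2 fold change of -0.17. Pdk2, the most abundant of them per exon length, was at 1003, 915, 839 and 1037 CPM in controls 1 to 4 and 873, 729 and 798 CPM in Notch3-/- mice 1 to 3. The controls were mostly higher but overlapped with Notch3-/- mouse 1, and the log2 fold change was -0.25 (SE 0.11) with an adjusted p of 0.481 by edgeR. The phosphatases, which oppose the kinases, both had r above 0 with Pdk4 and an unadjusted exact p under 0.05, as 3.71% of all genes did, and neither passed adjustment. Pdp1 had r = 0.90 with Pdk4 (exact permutation p = 0.0183, adjusted 0.652; rho 0.79, exact p = 0.0480; 0.80 without the 2 mice) and Pdp2 had r = 0.87 (exact permutation p = 0.0143, adjusted 0.647; rho 0.75, exact p = 0.0663; 0.61 without the 2 mice). The other kinases had lower r: 0.29 for Pdk2 (-0.36 without the 2 mice), 0.34 for Pdk1 (0.55) and 0.11 for Pdk3 (0.83).

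The receptors that act on these genes were measured beside them. Of 10 genes for PPAR, RXR and their coactivators, 0 were called. At an unadjusted p under 0.05 by edgeR 1, Rxra, was higher and 0 were lower, against 7.34% and 3.05% of all genes. The median log2 fold change was -0.01. Rxra was at 75.4, 58.8, 55.3 and 69.5 CPM in controls 1 to 4 and 89.4, 134 and 63.7 CPM in Notch3-/- mice 1 to 3. The 2 mice rich in liver RNA were the highest. Ppara, the receptor for fatty acids in heart and liver, was at 86.3, 122, 107 and 98.9 CPM in controls 1 to 4 and 116, 173 and 101 CPM in Notch3-/- mice 1 to 3, with Notch3-/- mouse 2 above the rest. Rxrg was the most abundant per exon length, and Ppard and Pparg were low, at 0.933 and 6.87 CPM per kilobase. The r with Pdk4 was -0.53 for Ppara, -0.48 for Ppard, 0.32 for Pparg, 0.29 for Ppargc1a, -0.69 for Rxra and 0.66 for Rxrg, with exact permutation p from 0.120 for Rxra to 0.511 for Ppargc1a. Without Notch3-/- mice 1 and 2 it was 0.08 for Ppara, -0.63 for Ppard, 0.59 for Pparg, 0.80 for Ppargc1a, 0.05 for Rxra and 0.49 for Rxrg, so the values below 0 for Ppara and Rxra rested on those mice. Lpin1, a coactivator, had the r farthest from 0 of the 10 genes (-0.75, exact permutation p = 0.0623), and 0.16 without Notch3-/- mice 1 and 2. Of the 10 genes, 5 had r above 0 and 0 had an unadjusted exact p under 0.05.

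Among 28 other PPAR target genes of muscle, 0 were called, 10 were lower and 3 were higher at an unadjusted p under 0.05 by edgeR, and 22 had a log2 fold change below 0 (median -0.26). Over all genes 3.05% were lower and 7.34% higher at that p, and 50.4% were below 0. Of the 14 cardiomyocyte genes 12 were also below 0 (median -0.22), and the part of heart muscle content in this list was not tested. Acaa2, a thiolase of mitochondrial fatty acid oxidation, was the most abundant per exon length, at 1134, 843, 837 and 1001 CPM in controls 1 to 4 and 836, 706 and 766 CPM in Notch3-/- mice 1 to 3. All 3 Notch3-/- mice were below the controls, Notch3-/- mouse 1 by a narrow margin, with a log2 fold change of -0.31 (SE 0.13) and an adjusted p of 0.454 by edgeR. The groups did not overlap for 7 of the 28 genes, against 8.53% of all genes. Ehhadh, a peroxisomal enzyme that liver expresses strongly, was at 38.5, 34.4, 39.1 and 53.4 CPM in controls 1 to 4 and 76.0, 258 and 52.9 CPM in Notch3-/- mice 1 to 3. It was highest in Notch3-/- mice 1 and 2, and the part of liver RNA in it was not tested. Its log2 fold change was 1.64 (SE 0.46) with an adjusted p of 0.237 by edgeR. Txnip, which restrains glucose uptake, was at 1162, 897, 558 and 764 CPM in controls 1 to 4 and 422, 530 and 729 CPM in Notch3-/- mice 1 to 3, with a log2 fold change of -0.59 (SE 0.25) and an adjusted p of 0.458 by edgeR. With Pdk4, 22 of the 28 had r above 0, with a median of 0.40 that was -0.30 without the 2 mice. Of them 2 had r above 0 and an unadjusted exact p under 0.05, Txnip (r = 0.84, exact permutation p = 0.0194, adjusted 0.652; rho 0.68, exact p = 0.110; 0.52 without the 2 mice) and Slc25a20, the carnitine carrier (r = 0.88, exact permutation p = 0.0361, adjusted 0.652; rho 0.54, exact p = 0.236; 0.19 without the 2 mice). G0s2, an inhibitor of fat breakdown, ran the other way (r = -0.72, exact permutation p = 0.0194, adjusted 0.652; rho -0.82, exact p = 0.0341; -0.55 without the 2 mice). Slc25a20 and G0s2 were named after their values were seen. Of all genes 3.71% had r above 0 and an unadjusted exact p under 0.05.

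Other pathways that respond to fasting were measured with 24 genes that FoxO factors and glucocorticoids switch on. Of these 0 were called, 3 were lower and 1 was higher at an unadjusted p under 0.05 by edgeR, and 20 had a log2 fold change below 0 (median -0.37), against 3.05%, 7.34% and 50.4% of all genes. Their summed level was 2362, 3556, 2417 and 2133 CPM in controls 1 to 4 and 2113, 2459 and 1922 CPM in Notch3-/- mice 1 to 3. Control mouse 2 was the highest, and the other controls lay within the range of the Notch3-/- mice. Bnip3, which marks mitochondria for removal, was the most abundant per exon length, with a mean of 303 CPM. The largest differences were those of Lcat, a liver enzyme of plasma lipoproteins (6.18, SE 1.17, adjusted p 0.118 by edgeR), the metallothionein Mt2 (-1.14, SE 0.54, adjusted p 0.498 by edgeR) and Cebpd (-0.98, SE 0.46, adjusted p 0.497 by edgeR). Lcat was at 102 and 236 CPM in Notch3-/- mice 1 and 2, 2.65 CPM in Notch3-/- mouse 3 and at most 1.98 CPM in controls. The size of its difference thus rested on the mice rich in liver RNA. Mt2 and Cebpd were both highest in control mouse 2, at 21.1 and 12.9 CPM, against at most 10.2 and 8.47 CPM in the other mice. The 3 lower genes were Trim63 (-0.57, SE 0.12, adjusted p 0.133), Pik3ip1 (-0.69, SE 0.26, adjusted p 0.396) and Fbxo32 (-0.35, SE 0.12, adjusted p 0.356), all by edgeR. For Trim63, named after its values were seen, and Fbxo32 all 3 Notch3-/- mice were below all 4 controls. The groups did not overlap for 3 of the 24 genes in either direction, against 8.53% of all genes. Over the 24 genes the median r with Pdk4 was 0.15, and 0.26 without the 2 mice. Pik3ip1, a brake on the insulin pathway, and Fbxo32, a ubiquitin ligase of muscle wasting, were the 2 with r above 0 and an unadjusted exact p under 0.05. Of all genes 3.71% passed that threshold with r above 0, and Pik3ip1 and Fbxo32 were named after their values were seen. Pik3ip1 had r = 0.89 (exact permutation p = 0.00357, adjusted 0.637; rho 0.89, exact p = 0.0123; 0.68 without the 2 mice), and Fbxo32 had r = 0.83 (exact permutation p = 0.0282, adjusted 0.652; rho 0.61, exact p = 0.167; 0.22 without the 2 mice).

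Clock genes, which vary with the hour of collection and feeding, were examined with 15 genes. Of these 0 were called, 2 were lower and 1 was higher at an unadjusted p under 0.05 by edgeR (median log2 fold change -0.27). Over all genes 3.05% were lower and 7.34% higher at that p. Nr1d1 was the most abundant per exon length. Dbp, an output gene of the clock, was at 62.6, 64.7, 25.6 and 9.35 CPM in controls 1 to 4 and 20.2, 16.4 and 12.3 CPM in Notch3-/- mice 1 to 3. Per3 was at 112, 105, 56.7 and 31.1 CPM in controls 1 to 4 and 42.4, 55.1 and 25.9 CPM in Notch3-/- mice 1 to 3. Both were highest in control mice 1 and 2, the mice with X identifiers, as Ucp2 was. The core clock gene Arntl, named after its values were seen, was lowest in those mice, at 4.94 and 10.7 CPM against 49.2 to 71.5 CPM in the others. The log2 fold change was -1.33 (SE 0.55) for Dbp, -1.06 (SE 0.71) for Ciart and -0.89 (SE 0.42) for Per3, with adjusted p of 0.452, 0.641 and 0.497 by edgeR. With Pdk4, Dbp had r = 0.41 (exact permutation p = 0.359, adjusted 0.808). Of the 15 genes 1, Bhlhe41, had r above 0 and an unadjusted exact p under 0.05 (r = 0.87, exact permutation p = 0.0183, adjusted 0.652; rho 0.71, exact p = 0.0881; 0.69 without the 2 mice). Bhlhe41 was named for this p, and 3.71% of all genes passed that threshold with r above 0. Over the 15 genes the median r with Pdk4 was 0.13, and 0.42 without the 2 mice, against -0.01 over all genes in both cases. Notch3-/- mouse 3, as high in Pdk4 as control mice 1 and 2, did not share their levels of Dbp, Per3 and Arntl. The part of collection time in the members was not tested.

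Markers of other cells were read in the same way. Of 10 adipocyte genes 3 passed the filter, 0 were called and 0 had an unadjusted p under 0.05 by edgeR (median log2 fold change -0.21). They summed to 513, 610, 431 and 518 CPM in controls 1 to 4 and 441, 350 and 597 CPM in Notch3-/- mice 1 to 3, most of it Plin4, which heart muscle also expresses. The defining genes Adipoq and Plin1 had at most 7 and 1 counts in a mouse and were at 0 in some. Lep was at 3.67 CPM in control mouse 4 and at 0 in the others, and Cidec was at 18.9 CPM in Notch3-/- mouse 2 and at most 2.46 CPM in the others. All 3 genes that passed the filter had r above 0 with Pdk4, and 1, Lipe, a lipase of stored fat named after its values were seen, had an unadjusted exact p under 0.05 (r = 0.85, exact permutation p = 0.0198, adjusted 0.652). Its rho was 0.82 (exact p = 0.0341), and its r was 0.73 without the 2 mice. Of all genes 49.4% had r above 0, and 3.71% had r above 0 with an unadjusted exact p under 0.05. The 8 skeletal muscle genes summed to 2.96, 4.64, 4.00 and 2.00 CPM in controls 1 to 4 and 1.64, 44.6 and 3.03 CPM in Notch3-/- mice 1 to 3, with Tnnt3 the most abundant and Myf6 at 0 in all mice. Skeletal muscle expresses Ucp3, and its markers were highest in Notch3-/- mouse 2, in which Ucp3 was low. The part of skeletal muscle in the Ucp3 level was not tested.

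Of 12 leukocyte genes that passed the filter, 1 was higher and 0 were lower at an unadjusted p under 0.05 by edgeR and 0 were called (median log2 fold change 0.18). Of 13 in all, the sum was 591, 505, 608 and 570 CPM in controls 1 to 4 and 620, 573 and 659 CPM in Notch3-/- mice 1 to 3, Lyz2 being the most abundant. The 9 endothelial genes gave 0 called and 0 at an unadjusted p under 0.05 by edgeR (median 0.05), and summed to 1377, 1058, 1319 and 1534 CPM in controls 1 to 4 and 1378, 1438 and 1413 CPM in Notch3-/- mice 1 to 3, Fabp4 being the most abundant. The 14 cardiomyocyte genes gave 0 called and 0 at an unadjusted p under 0.05 by edgeR, with 12 below 0 (median -0.22). The 5 blood genes gave 0 called and 2 lower at an unadjusted p under 0.05 by edgeR (median -0.48), with sums of 468, 353, 351 and 536 CPM in controls 1 to 4 and 303, 475 and 206 CPM in Notch3-/- mice 1 to 3, Hbb-bs being the most abundant. Of 5 sex-linked genes 0 were called (median -0.02). Xist, expressed in females, was at 238 CPM in control mouse 2 and 472 CPM in Notch3-/- mouse 1 and at most 8.23 CPM in the others, an order of mice that no member shared. The part of these cells in the members was not tested. For comparison with these lists, 3.05% of all genes were lower and 7.34% higher at an unadjusted p under 0.05 by edgeR.

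Among genes with a mean of at least 10 CPM, those most like Pdk4 over the 7 mice were Mark2 (r = 0.99), Zfp667 (0.98), Golph3l (0.97), Dpep1 (0.97) and Parp8 (0.97). Those most opposed were Txlna (-0.99), Rexo1 (-0.97), Uhrf1bp1l (-0.97), Ino80d (-0.96) and Nos3 (-0.96). The exact permutation p was 0.000397 for Mark2, Txlna and Rexo1, the smallest that 7 mice allow, with an adjusted p of 0.334. Without Notch3-/- mice 1 and 2, r lay between 0.84 and 0.94 for the 5 most alike and was -0.81 or lower for the 5 most opposed.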

How the data were processed

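The values were raw counts per Ensembl gene and library, deposited by the authors without normalization. The submitters' processing notes name CASAVA and build mm10; aligner, counter and strand handling were not given in the sources used here. All columns of the table were used. The 92 spike-in entries, with 34 counts in all, were left out. Of 46517 Ensembl identifiers, 46005 were matched to symbols. Counts were amplified by 22 PCR cycles without molecular identifiers, so they are not independent molecules.

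The 3 libraries of each mouse were summed. Genes kept by filterByExpr were fitted by genotype with edgeR 4.0.16 (R 4.3.3; TMM, quasi-likelihood F test, two-sided, Benjamini-Hochberg over all genes tested). Log2 CPM used a prior count of 2. Correlations over mice used numpy 2.4.6 and scipy 1.17.1, with two-sided exact permutation. Alternatives used DESeq2 1.42.0 and limma 3.58.1, and figures matplotlib 3.10.9. The steps were tested on simulated data. Members and gene lists were chosen with earlier results of these data known. Named genes were the members, Notch3, Alb, Cps1, Apoa1, the pyruvate dehydrogenase and PPAR genes, and the 5 genes most and least like Pdk4 with at least 10 CPM on average. From each list except the sex-linked one the most abundant gene per exon length was named. From the lists some of the up to 3 genes with the largest difference were also named. Other named genes, such as Bhlhe41, Trim63, Adipoq, Plin1, Lep, Cidec and Myf6, followed none of these rules. Genes named for overlap or shared sequence were chosen after the annotation was seen.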

Additional observations from a re-analysis of the deposited data

Results flagged for a closer look

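In the 4 control mice, 40 groups of values were examined for a mouse far from the others, and chance alone picks about 1 in 20 groups. In 3 of them the gap of the extreme mouse to its nearest neighbour, divided by the whole range, passed Dixon's 95% limit. For Apoa1, the gene of the main HDL protein, the share was 0.830, with control mouse 2 at 10.3 CPM and the other controls at 0.706 to 2.34 CPM. For Ppard, a PPAR gene, the share was 0.951, with control mouse 2 at 5.69 CPM and the others at 7.90 to 8.02 CPM, from 24 to 34 counts a mouse. For the genes that liver expresses after feeding the share was 0.891, with control mouse 3 at 914 CPM and the others at 1039 to 1054 CPM. The part of liver RNA in this level was not tested. No member was among them. The groups of 3 Notch3-/- mice were too small to examine in this way.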

How the results depend on the processing

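The number of genes called, 1 with edgeR, moved with the method: DESeq2 gave 300 on the genes edgeR tested, a filter set after its first run, and 601 on every gene with a count, added after the data were seen, edgeR on every gene with a count 639, limma-voom on 21 libraries 54, technical libraries 1 to 3 alone 48, 39 and 77, and both the k mice alone and the hepatocyte covariate 0, with Notch3 at -3.29 and -3.39 and adjusted p of 0.206 and 0.0913 by edgeR. With technical replicate number as a replicate block the number was 31; these numbers do not pair mice, as just 14 of 63 pairs of libraries with the same number correlated above 0.1. Leaving out 1 mouse gave 1 to 936, the latter without Notch3-/- mouse 3, when Pdk4 (-1.39), Ucp3 (-2.31) and Acot2 (-1.02) were called. The cause was not tested.

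Members' log2 fold changes turned sign with the hepatocyte covariate (Pdk4 0.29, Ucp3 1.07, Acot1 0.37, Acot2 0.23, Plin2 -0.07, Cpt1a -0.61) and with Notch3-/- mouse 3 as the lone knockout, assumed to vary like the controls and added after the data were seen (Pdk4 0.36, Ucp3 0.50, Acot1 0.49, Acot2 0.22, Plin5 0.00, Cpt1a -0.30). So did Acot1 among k mice (0.26), in technical library 3 (0.64) and without Notch3-/- mouse 1 (0.02), and Cpt1a without Notch3-/- mouse 2 (-0.22). Leaving out 1 mouse in turn gave -1.39 to -0.21 for Pdk4, -2.31 to -0.29 for Ucp3, -1.02 to -0.22 for Acot2, -0.90 to 0.02 for Acot1, -0.71 to -0.36 for Ucp2, -0.37 to -0.09 for Plin5, 0.37 to 1.25 for Angptl4, 0.02 to 0.77 for Plin2 and -0.22 to 0.57 for Cpt1a. The cause was not tested. Of all fold changes of members and Notch3 under the alternatives, 189 kept direction and side of the threshold and 16 turned sign.

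The count of members with r above 0 and an unadjusted exact p under 0.05, 2, was also 2 under the alternatives with a p, each mouse left out included, except centring within genotype (1) and technical library 3 alone (1). In technical library 1 the 2 were Acot1 and Ucp3 in place of Acot2. The sign of r turned for Ucp2 by rank (-0.11), Angptl4 without Notch3-/- mouse 1 (-0.18), Cpt1a without Notch3-/- mouse 2 (0.27) and in technical library 2 (0.08), and, without Notch3-/- mice 1 and 2, Ucp3 (-0.53) and Cpt1a (0.47). Leaving out 1 mouse gave r from 0.89 to 0.99 for Acot1, 0.92 to 0.99 for Acot2, 0.59 to 0.89 for Ucp3, 0.56 to 0.82 for Plin5, 0.18 to 0.67 for Ucp2, -0.18 to 0.62 for Angptl4, -0.53 to 0.27 for Cpt1a and -0.87 to -0.07 for Plin2, which passed the unadjusted threshold without Notch3-/- mouse 1. The cause was not tested. The number of members with a spread above the median gene, 8, held with RLE scaling and prior counts of 0.5 and 5.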
